A study of Xenopus laevis with 6 samples.

Results

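The ventx genes of the African clawed frog Xenopus laevis encode homeodomain transcription factors of the early embryo. They were taken as every row of the deposited read count tables whose name starts with ventx and a digit, which gave 7 rows of 45099. These are ventx1.1.L, ventx1.1.S, ventx1.2.L, ventx1.2.S, ventx3.1.S, ventx3.2.L and ventx3.2.S. The suffix names the L or S subgenome, since Xenopus laevis keeps many genes as a pair of copies (homeologs). The tables held no row under a ventx2 name, so the ventx2 genes were not analysed here.

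Each of 6 libraries held the polyadenylated RNA of 1 whole embryo at stage 11.5, during gastrulation. The 3 control embryos were uninjected, with no embryo injected with another mRNA to stand beside them. The 3 dkk embryos had received 100 pg of dkk mRNA in both blastomeres at the 2-cell stage. Dickkopf is a secreted protein that keeps Wnt ligands from signalling through the Lrp5/6 co-receptors. The embryos came as 3 sibling pairs, 1 control and 1 dkk embryo from each of mating pairs 1 to 3.

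Ventx proteins, called Vent, Vox, Xom, PV.1 or Vex in older work on Xenopus, act mainly as transcriptional repressors. Bmp signals switch their genes on in the ventral and lateral gastrula, and the proteins in turn keep genes of the dorsal organizer, such as goosecoid, off in those cells. Zygotic Wnt8 is made in the same ventrolateral mesoderm, and Xvent-1 (ventx1.2) is known in Xenopus to respond to Wnt8 as well as to Bmp. The comparison of dkk and control siblings asked how far each ventx gene depends on canonical Wnt signalling at this stage.

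Reads in genes numbered 17460820 to 19880568 per library, and 15.9% to 17.6% of each library's counted reads had several alignments and were assigned to no gene. The ventx genes and their L and S copies resemble each other, so the level of any 1 row is uncertain to the extent that its reads were set aside in this way. Markers fixed for the germ layers were read in these whole embryos: 26 of 27 marker rows had reads in all 6 libraries and none was at 0 throughout. The summed mesoderm markers (6 rows, among them brachyury and myf5) ran from 1010 to 1066 CPM in controls and from 488 to 579 CPM in dkk embryos. The other marker sets overlapped between the groups. Neurectoderm ran from 674 to 795 CPM in controls and from 406 to 770 CPM in dkk embryos. Epidermis ran from 589 to 1011 and from 435 to 1363 CPM, and endoderm from 605 to 985 and from 726 to 1028 CPM, in the same order. CPM are read counts scaled to a common library size with TMM factors. The fall of the mesoderm markers accompanies every ventx result given here, and its part in them was not tested. In whole embryos, fewer cells of a type and less RNA per cell cannot be told apart.

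All ventx rows together took 305, 555 and 360 CPM in controls 1 to 3 and 135, 258 and 149 CPM in their dkk siblings. The groups did not overlap, and each dkk embryo held 41.3% to 46.5% of the level of its own control sibling. The log2 ratio of the summed level was -1.17, -1.11 and -1.28 in pairs 1 to 3 (mean -1.18 ± 0.0855, SD, n = 3). With 3 pairs, a two-sided exact sign-flip permutation test cannot give a p below 0.25, which is what it gave. This total hides a wide range among the members, from falls of more than 2 log2 units to values close to 0.

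**Figure D1:**
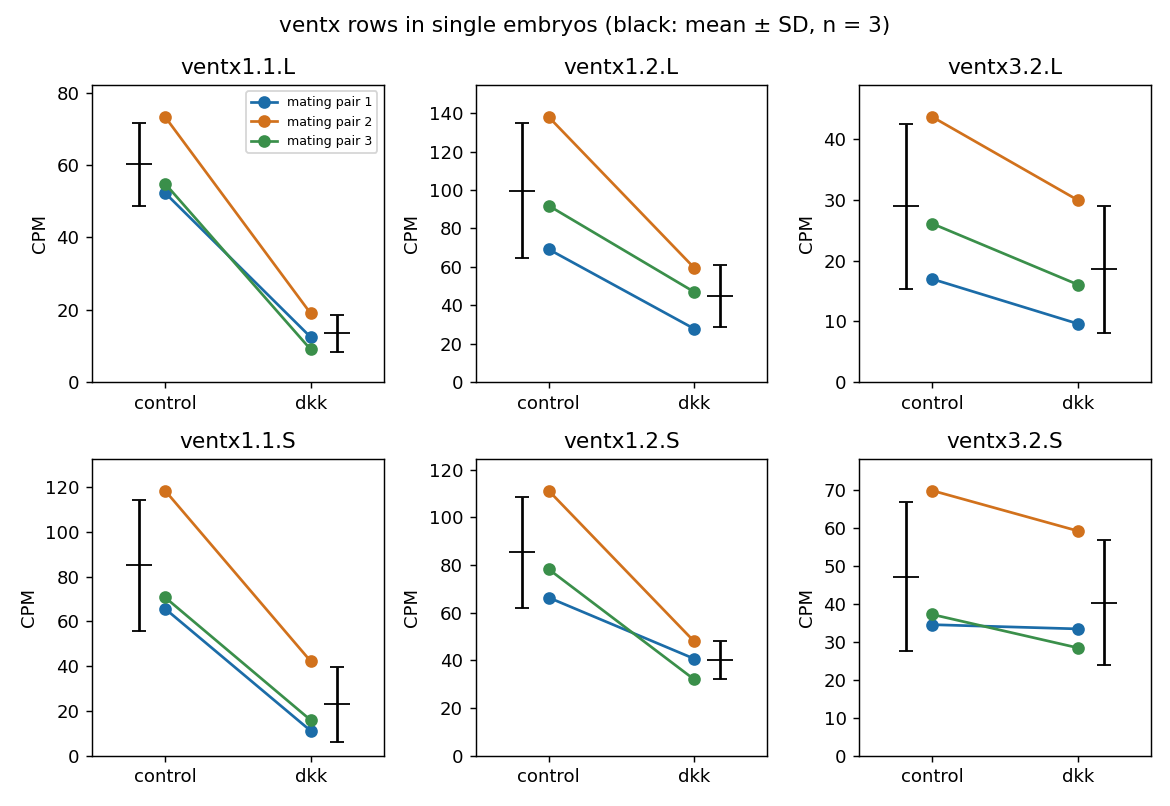
CPM (vertical axes, starting at 0) of the 6 tested ventx rows in the 3 control and 3 dkk embryos, with a line joining the siblings of each mating pair and black bars for the mean ± SD of 3 embryos. The control and dkk points are apart in the 4 ventx1 panels and overlap in both ventx3.2 panels, and mating pair 2 lies highest in every panel.

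The deepest falls were in ventx1.1, whose protein is also known as PV.1 and ventralises Xenopus mesoderm when supplied to the dorsal side. ventx1.1.L was read at 52.3, 73.3 and 54.9 CPM in controls 1 to 3 and at 12.4, 18.9 and 8.98 CPM in the dkk siblings. Every control lay above every dkk embryo by a wide margin. Its mean went from 60.2 ± 11.5 CPM to 13.4 ± 5.06 CPM (SD, n = 3 each), a log2 fold change of -2.21 ± 0.18 (SE; 95% interval -2.62 to -1.80; Benjamini-Hochberg adjusted p = 0.00194, quasi-likelihood F test in edgeR). ventx1.1.S stood at 65.6, 118 and 70.7 CPM in control embryos and at 11.1, 42.2 and 15.9 CPM after dkk. Here too the groups were apart, although the dkk embryo of pair 2 kept far more of this transcript than the other two. The log2 fold change of ventx1.1.S was -2.06 ± 0.21 (SE; 95% interval -2.55 to -1.57; edgeR, Benjamini-Hochberg adjusted p = 0.00929).

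The related gene ventx1.2, the Xvent-1 of the older literature and a repressor of dorsal genes in Xenopus, fell in both copies. ventx1.2.L was read at 69.2, 138 and 91.9 CPM in controls 1 to 3 and at 27.7, 59.5 and 46.9 CPM in dkk siblings. The highest dkk embryo, from pair 2, came close to the lowest control, from pair 1, without reaching it. Its log2 fold change was -1.17 ± 0.13 (SE; 95% interval -1.46 to -0.88; edgeR, Benjamini-Hochberg adjusted p = 0.00929). ventx1.2.S was read at 66.4, 111 and 78.3 CPM in control embryos and at 40.7, 48.0 and 32.0 CPM after dkk. The groups did not overlap, and the dkk embryos spanned a narrower range than the controls. Its log2 fold change was -1.07 ± 0.15 (SE; 95% interval -1.42 to -0.72; edgeR, Benjamini-Hochberg adjusted p = 0.0289).

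The ventx3.2 gene, known in Xenopus as Vex1, also a ventralising homeodomain repressor, did not pass the threshold in either copy in edgeR, and ventx3.2.L passed with DESeq2 (adjusted p = 0.0375). ventx3.2.L was read at 16.97, 43.7 and 26.1 CPM in controls 1 to 3 and at 9.60, 30.0 and 16.0 CPM in the dkk siblings. The groups overlapped because the embryos of pair 2 were high on both sides, while each dkk embryo was below its own sibling. Its log2 fold change was -0.69 ± 0.16 (SE; 95% interval -1.06 to -0.31; edgeR, unadjusted p = 0.00288 and Benjamini-Hochberg adjusted p = 0.184). ventx3.2.S was read at 34.6, 70.0 and 37.3 CPM in control embryos and at 33.5, 59.3 and 28.5 CPM after dkk. Siblings were close to each other, and the groups overlapped over most of their range. The log2 fold change of -0.23 ± 0.14 (SE) had a 95% interval from -0.54 to 0.09 that included 0 (edgeR, Benjamini-Hochberg adjusted p = 0.783).

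The remaining row, ventx3.1.S, was barely read. It had 2, 5 and 9 reads in controls 1 to 3 and 7, 3 and 6 reads in dkk embryos. The filter on low counts left it out of the test, and no fold is given, since none of these counts exceeds 9 reads.

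Of the 6 rows tested, 4 fell, 0 rose and 2 did not pass. Over all 21643 genes tested, 0.467% fell by this rule and 0.573% passed in either direction. Rows whose CPM did not overlap between the groups, with dkk lower, also numbered 4 of 6, against 2.89% of all genes. All 6 rows were lower in 3 of 3 pairs, against 13.9% of all genes. Over all genes tested the log2 fold change had a median of -0.00131. The authors' deposited table of 97 genes holds ventx1.1.L, with a log2 fold change of -1.60 and an adjusted p of 8.00e-07, and ventx1.1.S, with -1.09 and 0.0432. No other ventx row stands in it. Both falls are smaller there than in the fit used here (-2.21 and -2.06). The model and the rule of choice behind that table were not examined, so its values and absences are not a like-for-like comparison.

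The calls rest on comparing siblings. Without the mating pair as a block, 0 of 6 rows passed, with adjusted p-values of 0.138 for ventx1.1.L, 0.981 for ventx1.1.S, 1.00 for ventx1.2.L and 0.752 for ventx1.2.S (edgeR with Benjamini-Hochberg adjustment), while their log2 fold changes lay between -2.16 and -1.09. Without pair 2 the calls of ventx1.2.L (adjusted p = 0.0679) and ventx1.2.S (0.160) did not hold, and the call of ventx1.1.S did not hold without pair 3 (0.0655), in the same edgeR fit with Benjamini-Hochberg adjustment.

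**Figure D2:**
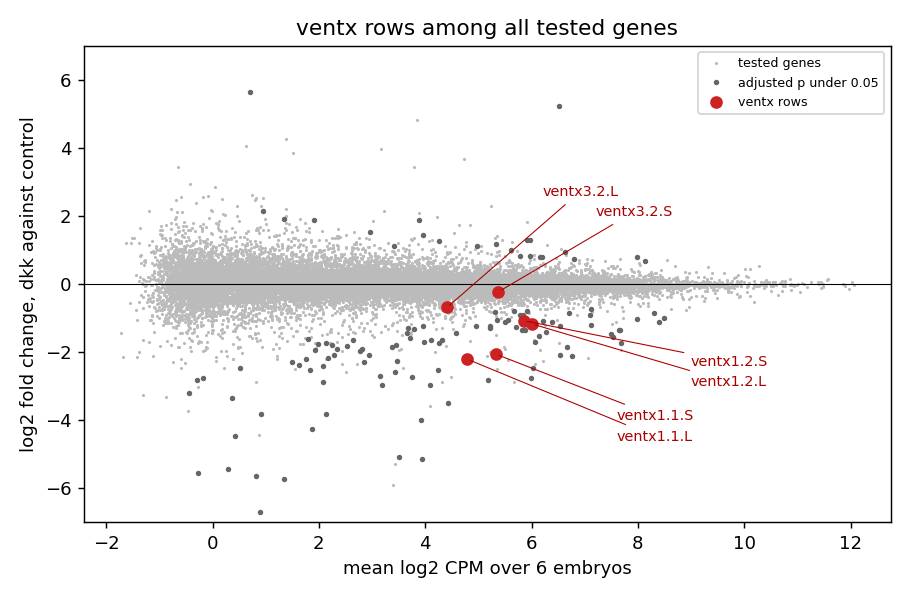
Log2 fold change of dkk against control (vertical axis) over the mean log2 CPM of 6 embryos (horizontal axis) for 21643 tested genes, with genes past an adjusted p of 0.05 in dark grey and ventx rows in red. The 4 ventx1 rows lie below the grey band of genes at their level, and the ventx3.2 rows lie at or near its lower edge and inside it.

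Member against member, the dkk change grew in the order ventx3.2, ventx1.2 and ventx1.1, in the L and in the S subgenome alike. With both copies summed, the dkk embryos held 83.5%, 78.6% and 70.2% of their siblings' ventx3.2 level in pairs 1 to 3. For ventx1.2 they held 50.4%, 43.1% and 46.3%. For ventx1.1 the dkk embryos held 19.9%, 31.9% and 19.8%. The 3 genes kept this order in each of the 3 pairs, with no overlap between them.

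The log2 ratio of the 4 ventx1 rows summed differed from that of the ventx3 rows by -1.21, -1.04 and -1.001 in pairs 1 to 3 (mean difference -1.08 ± 0.113, SD, n = 3 pairs). In all, 4 such differences were computed: ventx1 against ventx3, ventx1.1 against ventx1.2 (mean -0.998 ± 0.493), ventx1.1 against ventx3.2 (-1.73 ± 0.391) and ventx1.2 against ventx3.2 (-0.73 ± 0.134). The last 3 were added after the members' values were seen. Each had the same sign in 3 of 3 pairs, and each gave p = 0.25 in a two-sided exact sign-flip permutation test, the smallest that 3 pairs allow, and 0.25 after Benjamini-Hochberg adjustment over the 4. The difference between ventx1.1 and ventx1.2 was -1.34 in pair 1 and -1.22 in pair 3 but -0.43 in pair 2, all towards a deeper fall of ventx1.1.

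That difference was also fitted within libraries, a step added after the members' values were seen, in an edgeR fit over 81 gene pairs that share a stem and are numbered 1 and 2, with L and S copies summed. In that fit the dkk change of ventx1.1 minus that of ventx1.2 came out with a difference of -0.997 ± 0.22 on the log2 scale (SE; 95% interval -1.47 to -0.52), and the adjusted p of 0.0565 missed the threshold (edgeR with Benjamini-Hochberg adjustment). Of the 81 gene pairs 0% passed; 5 had an unadjusted p under 0.05, and no other tool was run on them. The value passed without pair 2 (adjusted p = 0.0117) and was at 0.712 without pair 1 (edgeR with Benjamini-Hochberg adjustment).

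The same counts were also expressed as shares of all ventx reads, which were not tested on their own. ventx1.1 gave 36.0% ± 2.27 (SD, n = 3) of all ventx reads in controls and 19.3% ± 3.85 in dkk embryos. ventx3.2 gave 18.3% ± 1.89 in controls and 32.1% ± 2.34 in dkk embryos. The share of ventx1.2 was 45.6% ± 1.55 and 48.4% ± 6.03. These are shares of reads, not of molecules: transcript lengths were not at hand, so levels are compared between embryos for a gene and not between genes.

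**Figure D3:**
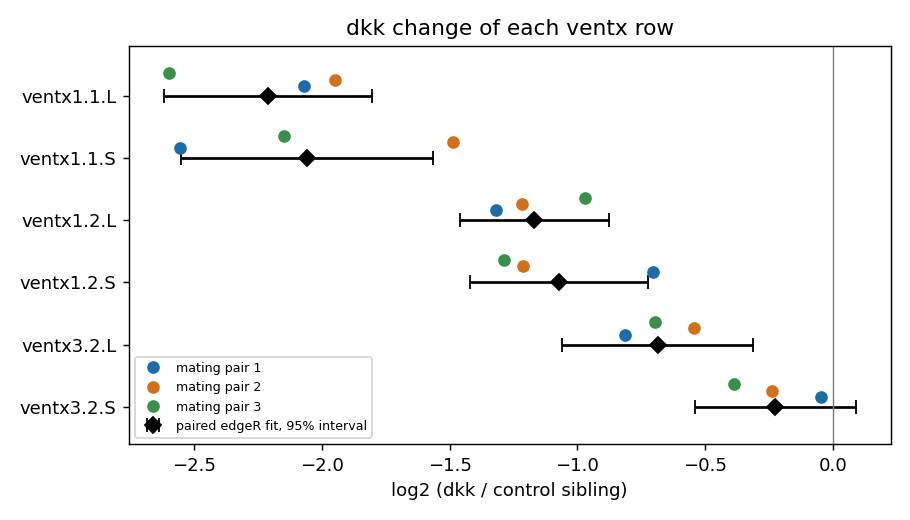
Log2 ratio of dkk to control sibling (horizontal axis) for the 6 tested ventx rows, with coloured points for the 3 mating pairs and black diamonds with 95% intervals from the paired edgeR fit. The rows step from ventx1.1 near -2 through ventx1.2 near -1 to ventx3.2.S, whose interval spans 0.

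The L and S copies of each gene were compared within each library, as the share of L reads among L and S reads. ventx1.1 had L shares of 42.1% ± 3.34 in controls and 40.0% ± 11.4 in dkk embryos (SD, n = 3 each). ventx1.2 had 53.5% ± 2.23 and 51.8% ± 9.96. In both genes the mean hardly moved and the spread between embryos was wider under dkk.

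Pair 1 stood apart from pairs 2 and 3 in these genes. Its log2 ratio of L to S reads in ventx1.1 went from -0.33 in the control to 0.16 in the dkk sibling, whereas it went down in pair 2 (-0.69 to -1.15) and pair 3 (-0.37 to -0.82). In ventx1.2 the ratio went from 0.06 to -0.55 in pair 1, from 0.31 to 0.31 in pair 2 and from 0.23 to 0.55 in pair 3. So in pair 1 the copies that fell further were ventx1.1.S and ventx1.2.L, and in pair 3 they were ventx1.1.L and ventx1.2.S. In ventx3.2 the ratio went down in 3 of 3 pairs, from -1.03 to -1.80, from -0.68 to -0.99 and from -0.51 to -0.83.

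An edgeR fit over 6018 homeolog pairs tested whether dkk changed the L to S ratio. It called 0.249% of all homeolog pairs and 0 of the 3 ventx genes, of which 1, ventx3.2, had an unadjusted p under 0.05. For ventx3.2 the dkk change of L minus that of S was -0.46 ± 0.18 (SE; 95% interval -0.86 to -0.05; edgeR, unadjusted p = 0.0305 and Benjamini-Hochberg adjusted p = 0.575). For ventx1.1 the difference was -0.16 ± 0.21 (95% interval -0.64 to 0.33) and for ventx1.2 it was -0.09 ± 0.18 (-0.51 to 0.33). In the ventx1 genes these intervals reach from a deeper fall of L by 0.64 log2 units to a deeper fall of S by 0.33.

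**Figure D4:**
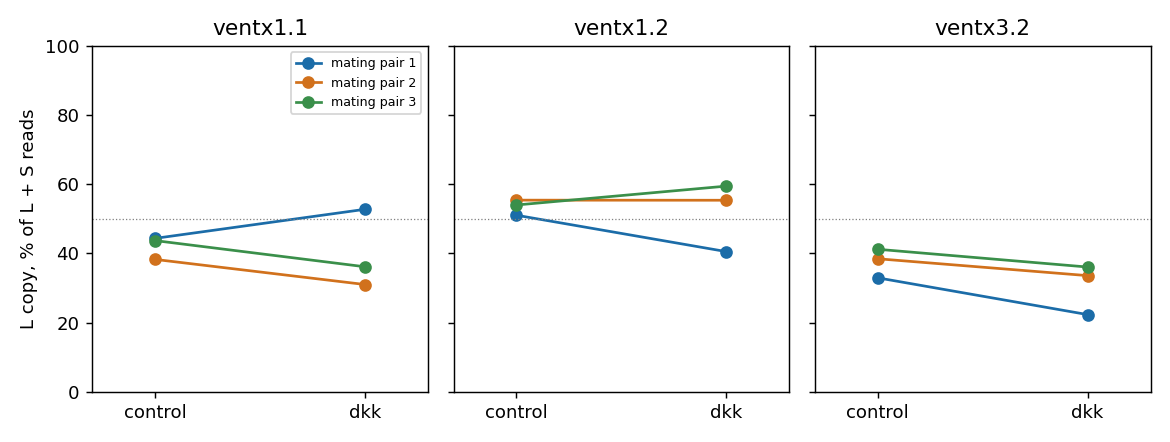
Share of L reads among L and S reads of ventx1.1, ventx1.2 and ventx3.2 (vertical axis, percent) in control and dkk embryos, with a line for each mating pair and a dotted line at equal reads. The lines cross or diverge in ventx1.1 and ventx1.2 and all run down in ventx3.2, most steeply in pair 1.

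Levels also differed between matings. All 6 tested rows were highest in mating pair 2 in controls and again in dkk embryos, a pattern met by 17.5% of all tested genes. An F test of the mating pair in the same edgeR fit, added after these levels were seen, passed for 4 of the 6 rows, against 22.2% of all genes. It compares the 3 matings jointly and gave adjusted p-values of 0.00622 for ventx3.2.L, 0.0165 for ventx1.1.S and 0.00942 for both ventx1.2.L and ventx3.2.S, while ventx1.1.L (0.0687) and ventx1.2.S (0.0924) did not pass (edgeR with Benjamini-Hochberg adjustment). Pair 2 exceeded pair 1 by 1.5 log2 units in ventx3.2.L, 1.38 in ventx1.1.S, 1.05 in ventx1.2.L, 0.92 in ventx3.2.S, 0.55 in ventx1.1.L and 0.48 in ventx1.2.S, differences that were not tested on their own. In both ventx3.2 copies that difference was larger in size than the dkk change, which was -0.69 in ventx3.2.L and -0.23 in ventx3.2.S.

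In the RefSeq annotation of the assembly Xenopus_laevis_v10.1, used here for names and gene order alone, the ventx genes form a cluster in each subgenome. The order of the ventx genes runs ventx3.2, ventx1.2, ventx2.2, ventx1.1 and ventx2.1. In the S subgenome LOC108697184, which had no row, stands between ventx1.2.S and ventx2.2.S. Of the 10 ventx symbols in that annotation, 6 matched a row of the count tables, and ventx3.1.S matched none. Of these 5 ventx genes, ventx3.2, ventx1.2 and ventx1.1 were measured in both subgenomes. In that order, the log2 fold changes were -0.69, -1.17 and -2.21 in the L copies and -0.23, -1.07 and -2.06 in the S copies. The ventx2 places between and after them were not analysed here.

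Genes flanking the cluster were examined within 12 places on either side, a choice made after the members' values were seen. Of 48 flanking genes, 16 had a row and 15 were tested. None of the 15 passed in edgeR. Before adjustment 0 lower and 4 higher reached 0.05, against 1693 of 21643 genes in either direction. DESeq2 called 1 of the flanking genes, against 388 of 20384 genes, and limma-voom called 0. The log2 fold changes of the flanking genes ran from -1.14 to 1.72. The nearest tested neighbours were dntt.L at -1.14 ± 0.68 and kndc1.L at -0.33 ± 0.21 in the L subgenome, and znf518a.S at -0.06 ± 0.15 and gsto1.S at 0.78 ± 0.32 in the S subgenome (log2 fold change ± SE). hhex.S, a homeobox gene of the anterior endomesoderm 10 places away, was at 0.94 ± 0.15 and just missed the threshold (edgeR, Benjamini-Hochberg adjusted p = 0.0506). It passed in edgeR with upper-quartile scaling (0.0462), without the filter on low counts (0.00113), without pair 1 (0.0229) and without pair 3 (0.0260), and in DESeq2 (6.60e-05).

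**Figure D5:**
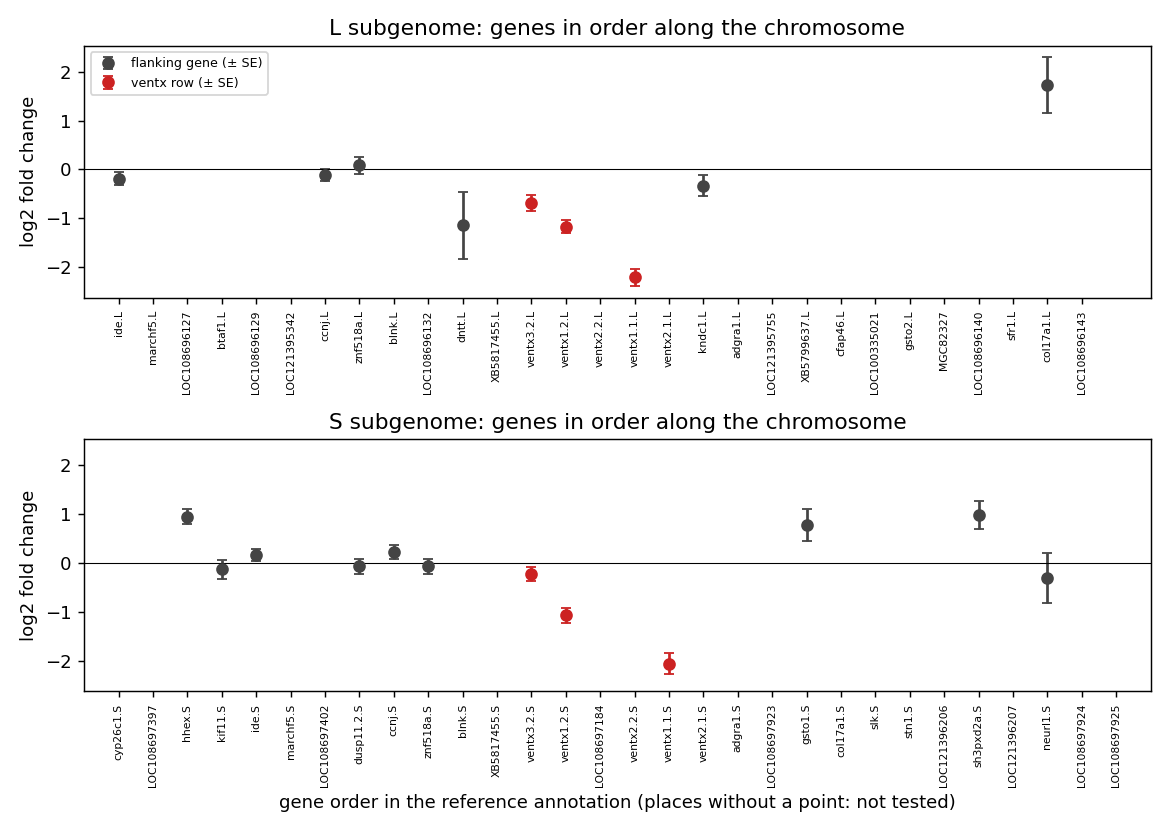
Log2 fold change ± SE of dkk against control (vertical axis) for ventx rows in red and flanking genes in grey, in gene order along the L (top) and S (bottom) chromosome. The red points descend from ventx3.2 to ventx1.1 in both panels, and the flanking genes run from -1.14 (dntt.L) to 1.72 (col17a1.L).

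RNA of the Bmp ligand gene bmp4 was read beside that of the ventx genes. Bmp signalling itself was not measured, and its part in the ventx falls was not tested. bmp4.L stood at 83.8 ± 5.77 CPM in control embryos and 95.9 ± 30.6 CPM after dkk, and bmp4.S at 133 ± 24.9 and 148 ± 38.4 CPM (SD, n = 3 each). Their log2 fold changes of 0.14 ± 0.17 and 0.13 ± 0.13 (SE) did not pass, and those signs turned without pair 2 (-0.022 for bmp4.L) and without pair 1 (-0.011 for bmp4.S). Of the Bmp pathway list of ligands, receptors, Smads, antagonists and targets, 25 of 48 symbols had a row and 45 rows were tested. None passed in edgeR. Before adjustment 7 lower and 9 higher reached 0.05, against 1693 of all 21643 genes in either direction. Without overlap of the groups 7 rows lay lower, against 2.89% of all genes, and 7 lay higher, against 2.66%. DESeq2 called 10 of 44 rows, against 388 of 20384 genes, and limma-voom called 2, against 145 of 21643 genes. Without pair 3, 8 passed in edgeR, against 659 of 21750 genes. The median over the list was 0.14 on the log2 scale, and its sign turned without pair 2 (-0.035).

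By role, the 6 rows of smallest p in the Bmp list included both copies of the type I receptor acvr1, at log2 fold changes of 0.57 ± 0.13 and 0.54 ± 0.12 (SE) in acvr1.L and acvr1.S. The ligand copy bmp2.L was at 0.78 ± 0.19 and the antagonist follistatin, fst.S, at 1.03 ± 0.19. The homeobox targets evx1.L and msx2.L were at -1.49 ± 0.30 and -2.22 ± 0.38. DESeq2 called evx1.L (adjusted p = 0.000302), fst.S (0.00076), acvr1.L (0.0327) and acvr1.S (0.0394), and not bmp2.L (0.0834). In edgeR evx1.L passed without pair 1 (Benjamini-Hochberg adjusted p = 0.0293), without pair 3 (0.0298) and without the filter on low counts (0.0199). There fst.S passed without pair 3 (0.0149) and without that filter (0.00767). msx2.L, which like ventx encodes a homeodomain repressor of the ventral side, was read at 102, 116 and 90.8 CPM in controls 1 to 3 and at 21.7, 46.5 and 10.2 CPM in dkk siblings. Its groups did not overlap, and its adjusted p was 0.158 (edgeR with Benjamini-Hochberg adjustment), reaching 0.0325 with limma-voom, 0.00118 with DESeq2, and 0.0152 without pair 2 and 0.0453 without pair 3 in edgeR. The other msx rows, named here after their values were seen, were at -2.34 ± 0.52 in msx1.L, -2.49 ± 0.60 in msx1.S and -2.73 ± 0.76 in msx2.S. None of these 3 passed in edgeR with all pairs, and msx2.S passed without pair 3 (Benjamini-Hochberg adjusted p = 0.0326). DESeq2 called all 3 (adjusted p = 0.00874, 0.0171 and 0.0433, in the same order) and limma-voom called msx1.L (0.0498). Other target rows of the list, looked up after their values were seen, did not all go down. The L and S copies were at 0.22 and 0.28 in id2 and at 0.43 and 1.04 in id4. They were at -0.11 and 0.05 in bambi, 0.04 and -0.02 in smad6, and -0.16 and -0.79 in szl. The second evx1 copy, evx1.S, was at -1.56 ± 0.41 (SE). None of these rows passed in edgeR with all pairs.

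The organizer list holds genes that Ventx proteins are known to repress. Of it, 18 of 31 symbols had a row, and chrd (chordin) and otx2 were among those without 1. Among the 32 rows tested, 2 rose, 2 fell and 28 did not pass. Over all genes tested, 0.106% rose and 0.467% fell by this rule. Before adjustment 12 higher and 3 lower reached 0.05 in edgeR, the called rows among them, against 1693 of 21643 genes in either direction. The rows of fst and nog stand in this list and in the Bmp list, and both fst copies count as higher in each tally. The median over the list was 0.38 on the log2 scale, and 0.14 without pair 3. Without overlap of the groups 9 rows lay higher, against 2.66% of all genes, and 4 lay lower, against 2.89%. hhex.L, the anterior endomesoderm gene, was read at 24.6, 27.6 and 28.0 CPM in control embryos and at 48.6, 55.5 and 81.0 CPM in their dkk siblings, with no overlap, and its rise of 1.17 ± 0.16 passed (edgeR, Benjamini-Hochberg adjusted p = 0.0236). The LIM homeobox copy lhx1.S went from 73.1, 86.1 and 98.6 CPM to 127, 139 and 169 CPM, and its rise of 0.75 ± 0.10 passed (edgeR, Benjamini-Hochberg adjusted p = 0.0250). Without pair 2 neither rise passed (hhex.L 0.0787, lhx1.S 0.124), and without pair 1 that of lhx1.S did not (0.0545, edgeR with Benjamini-Hochberg adjustment). The other copies, hhex.S and lhx1.L, the latter looked up after its values were seen, also lay higher without overlap. They were at 0.94 ± 0.15 and 0.70 ± 0.12 and missed the threshold (edgeR, Benjamini-Hochberg adjusted p = 0.0506 and 0.0599). foxa4.S, a forkhead gene of the dorsal lip, was at 0.66 ± 0.11 and missed the threshold (edgeR, Benjamini-Hochberg adjusted p = 0.0584), which it passed without pair 3 (0.0335), without the filter on low counts (0.00336) and in DESeq2 (0.00159).

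The 2 rows that fell were both copies of pnhd (Pinhead), which encodes a secreted protein of the marginal zone that associates with the Bmp-like ligand Admp, and which is not a dorsal gene in the way the others are. pnhd.L was read at 186, 185 and 211 CPM in controls 1 to 3, at 52.1, 52.0 and 57.5 CPM in dkk siblings, and had a log2 fold change of -1.85 ± 0.10. pnhd.S changed by -2.46 ± 0.19 (SE; edgeR, Benjamini-Hochberg adjusted p = 0.00214). The other 2 rows that lay lower without overlap were the copies of cer1, named here after their values were seen, which encodes Cerberus, a secreted antagonist of Wnt, Bmp and Nodal ligands. cer1.L was read at 102, 83.5 and 71.8 CPM in controls 1 to 3 and at 12.4, 17.99 and 58.7 CPM in dkk siblings. The log2 fold changes of cer1.L and cer1.S were -1.84 ± 0.66 and -1.001 ± 0.26 (SE), lower in 3 of 3 pairs, and neither passed in edgeR with all pairs (Benjamini-Hochberg adjusted p = 0.656 and 0.360). Without pair 3 both passed (edgeR, 0.00632 and 0.00186), at -2.61 and -1.37, and cer1.S passed with DESeq2 (0.00116). Goosecoid, the organizer gene best known as a target of Ventx repression, was looked up after its values were seen. gsc.L was at 0.80 ± 0.75 and gsc.S at 1.19 ± 0.32 (log2 fold change ± SE), and neither passed in edgeR with all pairs (Benjamini-Hochberg adjusted p = 0.891 and 0.297). Without pair 3 gsc.L was at -0.070. gsc.S ran from 0.72 without pair 3 to 1.52 without pair 1, where it passed (edgeR, adjusted p = 0.0216), and it passed with DESeq2 (0.00981).

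The genes whose profile over the 6 libraries was most like that of the summed ventx1 rows were sought among 12729 tested rows with a symbol, by Pearson's r of log2 CPM. They were prima1-like.S (r = 0.991), susd1.1 (0.969), aplnr.L (0.967), axin2.L (0.967) and gas1.S (0.963). Of these, axin2.L, the Wnt feedback gene, had a log2 fold change of -5.09 and gas1.S of -1.13. aplnr.L, the apelin receptor copy, was read at 105 ± 11.2 CPM in control embryos and 65.1 ± 6.68 CPM after dkk (SD, n = 3), with a log2 fold change of -0.69. It just missed the threshold in edgeR (Benjamini-Hochberg adjusted p = 0.0506) and passed with DESeq2 (0.000809), without the filter on low counts (0.00362) and without pair 3 (0.0178). prima1-like.S had less than 1 CPM on average in either group. An r of at least 0.9 was reached by 59 of the rows.

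For the summed ventx3 rows the list was a different one: plod3.1 (r = 0.994), usp39.L (0.986), plk1.S (0.981), prps1.L (0.981) and ddah1.S (0.979). All 5 were highest in mating pair 2, and their log2 fold changes under dkk lay between -0.30 and -0.07. Both traits follow largely from the choice of rows by likeness to the ventx3 sum, itself highest in pair 2 in both groups. The falls of the rows picked for ventx1 follow from their choice in the same way. An r of at least 0.9 was reached by 140 of the rows. These r describe 6 libraries that share the 3 matings and the dkk contrast, and they carry no test.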

How the data were processed

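The authors deposited raw read counts per gene for 6 libraries. Per the submitters' processing notes, TopHat2, SAMtools and HTSeq were among the tools; versions, build and annotation were not given in the sources used here. Rows that name no gene (25.6% to 28.2% of counted reads) were left out. The authors' deposited table holds, per the file headers, a baseMean (signal: mean normalized counts), log2 fold changes with standard errors, a test score, p-values and adjusted p-values.

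The dkk contrast was fitted in edgeR 4.0.16 under R 4.3.3: TMM scaling, filterByExpr (minimum count 10, total 15), robust quasi-likelihood F test, mating pair as a block, Benjamini-Hochberg adjustment over 21643 genes, threshold 0.05. Standard errors are those implied by F. Log2 ratios of pairs used a prior count of 2. The L to S ratio was tested with library and copy-by-mating terms. The fits were tested on simulated data. The labels state that siblings share a mating; deviations from group means correlated at 0.674, 0.552 and 0.622 within pairs. Each library is a different embryo, so p-values rest on 3 sibling pairs. In the edgeR fits the spread of each gene was moderated with that of all genes tested. Spread between embryos of the same mating and group was not measured.

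Alternatives included DESeq2 1.42.0, limma-voom (limma 3.58.1), other scalings and filters, no block, summed copies and each pair left out. Members and lists were chosen with earlier results of these data known. Named were every ventx row, list rows past the threshold or of smallest p up to 6 per list, and the 5 rows most like each subfamily; others are marked where they appear. Levels per coding length were not computed, since no transcript or protein table was used here.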

Additional observations from a re-analysis of the deposited data

How the results depend on the processing

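Log2 fold changes of the 6 ventx rows kept their sign under all 10 alternatives run for each, from -2.35 to -2.01 in ventx1.1.L and from -0.32 to -0.14 in ventx3.2.S; ventx3.2.L passed with DESeq2 alone (adjusted p = 0.0375). Without the mating pair as a block the calls numbered 0 of 6 ventx rows, 14 of all genes, 1 in the organizer list and 1 homeolog pair of all. DESeq2 called 388 genes, 10 in the Bmp list and 12 in the organizer list; limma-voom called 2 in the Bmp list. Without a filter on low counts 343 genes passed, 2 in the Bmp list and 9 in the organizer list, and the ventx1.1 to ventx1.2 difference of -0.997 passed (adjusted p = 0.000343, edgeR with Benjamini-Hochberg adjustment). With copies summed, 2 of 3 ventx genes passed. Leaving out 1 pair at a time gave 2 to 4 ventx calls, 58 (without pair 2) to 659 (without pair 3) calls over all genes, 1 to 8 in the Bmp list, 2 to 14 in the organizer list, 2 to 326 homeolog pairs, and -1.28 to -0.83 for the ventx1.1 to ventx1.2 difference. With 1 pair left out, values that changed sign ran from -0.022 (without pair 2) to 0.39 in bmp4.L, from -0.011 (without pair 1) to 0.27 in bmp4.S, from -0.070 (without pair 3) to 1.52 in gsc.L, and to 0.0064 (without pair 3) from -0.14 in znf518a.S; the L to S difference ran from -0.30 to 0.16 (without pair 1) in ventx1.2 and from -0.46 to 0.010 (without pair 2) in ventx1.1. With 1 pair left out the list medians ran from -0.035 (without pair 2) to 0.30 for Bmp and from 0.14 (without pair 3) to 0.44 for the organizer. The causes were not tested. The ventx1 to ventx3 difference lay between -1.17 and -1.02 in every alternative run. Levels per coding length were not run. Depth limits ventx3.1.S alone, with 2 to 9 reads.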
